A study of Mus musculus with 18 samples.

Results

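Thrombospondins are secreted glycoproteins of the extracellular matrix, and CD47 is a cell surface receptor that binds them. The genes described here are *Thbs1*, *Thbs2*, *Thbs3*, *Thbs4*, *Comp* (cartilage oligomeric matrix protein, the remaining member of the thrombospondin family) and *Cd47*. They were chosen by symbol, as 6 of the 22909 gene symbols of the deposited array table, and each is represented by its transcript cluster, the set of probes summarised into 1 signal. *Cd47* has 2 transcript clusters, and the one with the higher mean signal over all arrays stands for the gene, with the other given beside it. Signals came from 18 Affymetrix arrays of the Mouse Gene ST type, in 6 groups of 3. The groups are mesangial cells, podocytes and endothelial cells from *Cd2ap* mutant mice and from wild type mice, all 5 weeks of age. The mutants were homozygous for a mutant allele of *Cd2ap*, the gene of the adapter protein CD2AP (strain B6.129X1-Cd2ap tm1Shaw/J). They are a mouse model of focal segmental glomerulosclerosis, and the mutation was not limited to 1 cell type. Glomeruli were isolated and dissociated, and green fluorescent cells were sorted by FACS with a reporter transgene that each cell type has to itself, such as *Meis1-GFP* for mesangial cells and *Tie2-GFP* for endothelial cells. Cell type and reporter cannot be told apart. The column names of the 3 mesangial control arrays carry a plus and a minus sign, where the other controls carry a pair of plus signs, although the genotype field of their sample records also reads wild type. Their titles say control where those of the other cell types say wild type. A heterozygous control for mesangial cells is therefore possible, and the sources used here do not settle it. The letters A, B and C name the arrays of a group by their place among the columns, and the series record describes them as biological triplicates.

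THBS1 and THBS2 are trimers that carry type 1 repeats, the modules that bind CD36 and, in THBS1, activate the latent form of TGF-beta. THBS3, THBS4 and COMP are pentamers without these repeats. The C-terminal region of THBS1 binds CD47, which lowers nitric oxide and cGMP signalling in the cell, and CD47 also binds SIRPA on phagocytes, which holds back engulfment. Mesangial cells, the contractile matrix-producing cells between the glomerular capillaries, are known to make THBS1 in glomerular injury.

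*Cd2ap* itself was not shown to be lower in arrays labelled mutant, with log2 differences of -0.31 in mesangial cells (adjusted p = 0.151), -0.23 in podocytes (adjusted p = 0.504) and 0.18 in endothelial cells (adjusted p = 0.336) from limma. Its signal was 797 to 870 in mutant and 922 to 1123 in wild type mesangial arrays and 1478 to 1512 against 1546 to 2108 in podocyte arrays, so the mutant arrays lay below all wild type arrays in both, while in endothelial cells they lay above, at 891 to 966 against 757 to 859. Since no cell type gave a call, every direction below rests on the labels. Defining markers fitted the labelled cell types: the summed signal of 9 podocyte markers was 13371 to 16363 in podocyte arrays and 914 to 3990 elsewhere, that of 8 mesangial markers 9154 to 13243 in mesangial arrays, and that of 9 endothelial markers 16191 to 18553 in endothelial arrays. Wild type mesangial array C stood apart, with a podocyte marker sum of 3990 against 1003 and 1150 in arrays A and B, an endothelial sum of 8379 against 3033 and 3418, and an erythroid sum of 7311 against 643 and 351. Calls between genotypes in mesangial cells that were lost without it are named below with their values. Podocyte arrays also carried mesangial markers, with sums of 4546 to 5654 in wild type and 1247 to 4189 in mutant arrays. The median signal of an array was 62.8 to 71.6, and a signal of 100 was the minimum for a test, so values under 100 lie close to the bulk of all transcript clusters. The number of arrays, 3 per group, limits the precision of every value.

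Promoter sequences from RefSeq (GRCm38.p6) were found for 4 of the 6 genes, *Thbs2*, *Thbs3*, *Thbs4* and *Cd47*. *Cd47* was detected in every array and *Thbs2* in few, and the 250 bases before the start site of each are printed to set the 2 side by side, 5′ to 3′ along the gene. Capitals mark CAGAC, the Smad binding element of TGF-beta signalling, or its reverse complement GTCTG.
Cd47, chr16:49855404-49855653, plus strand: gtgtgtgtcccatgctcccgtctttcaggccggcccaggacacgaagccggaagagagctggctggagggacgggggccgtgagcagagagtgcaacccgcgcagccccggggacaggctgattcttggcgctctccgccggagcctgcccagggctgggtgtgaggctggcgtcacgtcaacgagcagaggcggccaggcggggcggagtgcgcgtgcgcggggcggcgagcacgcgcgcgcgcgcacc
Thbs2, chr17:14694263-14694512, minus strand: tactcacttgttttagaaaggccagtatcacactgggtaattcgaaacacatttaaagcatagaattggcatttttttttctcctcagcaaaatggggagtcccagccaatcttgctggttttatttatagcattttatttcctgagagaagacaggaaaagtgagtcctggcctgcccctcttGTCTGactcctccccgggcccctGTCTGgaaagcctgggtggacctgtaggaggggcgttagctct
The *Cd47* window held 30 CpG dinucleotides and was 73.2% G or C, and 5.9% of the 32851 promoter windows of this length held as many CpGs. The *Thbs2* window held 3 CpGs and was 46.8% G or C, which is below the median window at 6 CpGs and 52.4%. CAGAC was found 2 times before *Thbs2* and 2 times before *Thbs4*, and in none of the other windows of these genes, while 42.2% of all windows held it on either strand. The other motifs searched on both strands were the CArG box of serum response factor (in 1.47% of all windows), the AP-1 motif TGANTCA (6.75%), the cAMP response element TGACGTCA (1.55%) and the EGR1 motif GCGTGGGCG (0.536%), and none of them was present before these 4 genes. These matches describe the letters of the windows only. No chromatin or binding was measured.

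*Thbs1* was the member that differed between genotypes, and it did so in mesangial cells. In mutant mesangial arrays A, B and C the signal of *Thbs1* (transcript cluster 10474700) was 706.4, 1265.2 and 1317.8. In the wild type mesangial arrays it was 255.8, 139.6 and 217.1. The lowest mutant array was thus 2.76 times the highest wild type array. The groups did not overlap, with the mutant arrays higher, as in 12.3% of the transcript clusters tested in mesangial cells. The means were 1096 ± 339 and 204 ± 59.2 (SD, n = 3 each), a log2 difference of 2.42 (standard error 0.31, 95% confidence interval 1.68 to 3.15, adjusted p = 0.0169 from limma), or 5.34-fold. In sorted bulk samples, more cells expressing a gene and more RNA per cell cannot be told apart. Of the members, 2 could be tested in mesangial cells and 1 was called higher, against 1.25% of all 11457 transcript clusters tested. By the screen of the study's methods, an unadjusted p under 0.05 and a change over 1.5-fold, *Thbs1* also passed, as did 5.19% of these transcript clusters in either direction. Only 6 had a larger increase, while 79 had a smaller p, and the mutant arrays varied among themselves, with array A below arrays B and C.

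**Figure D1:**
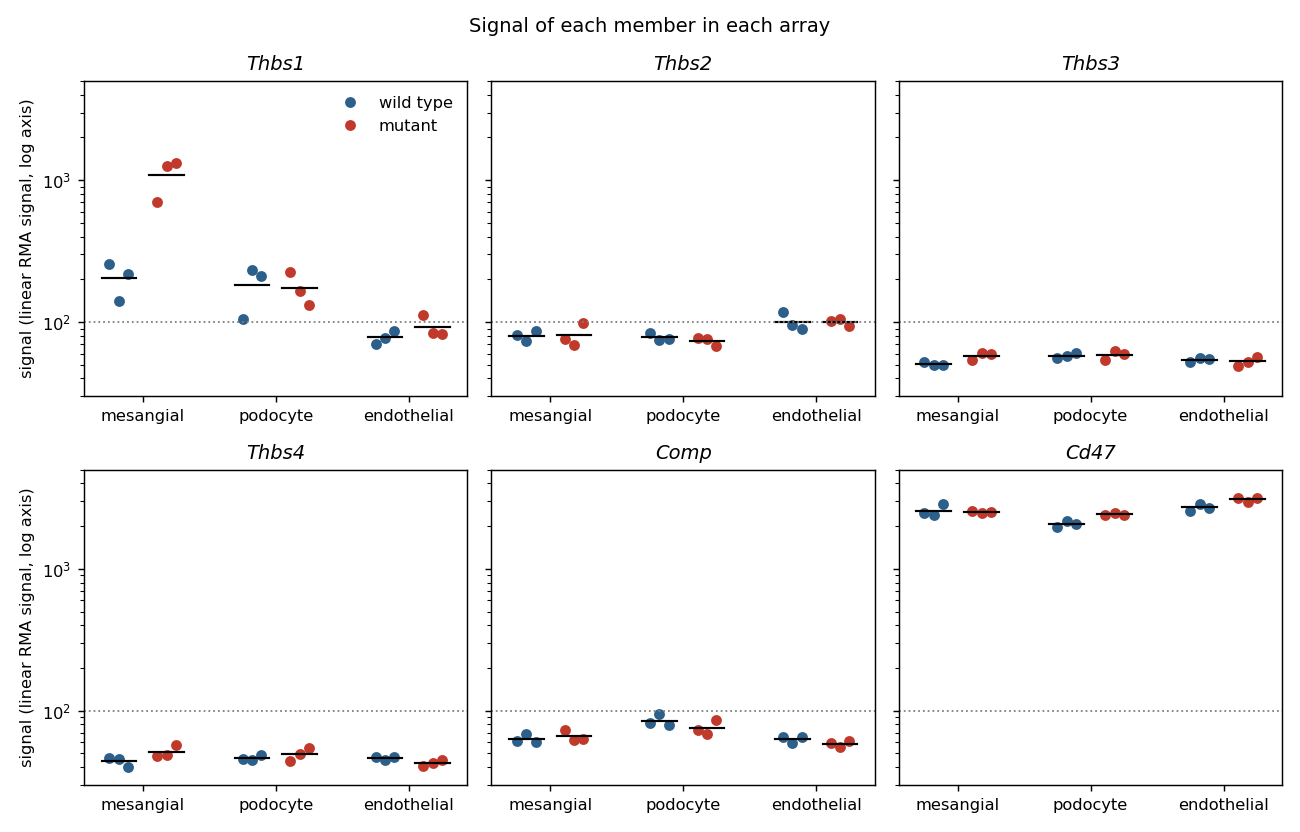
Signal of each member (log axis, linear RMA signal) in each of the 18 arrays, by cell type and genotype; points are arrays, black lines are means of 3, and the dotted line is the minimum signal of 100. *Thbs1* rises in the mutant mesangial arrays to between 706.4 and 1317.8, *Cd47* is between 1976 and 3160 in every array, and *Thbs3*, *Thbs4* and *Comp* stay under the dotted line.

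The size of the *Thbs1* difference varied less than its call. With each array left out in turn the log2 difference stayed between 2.16 and 2.71, with adjusted p from 0.0188 to 0.0779, and the call was lost without mutant array B (adjusted p = 0.0779), mutant array C (0.0609) or wild type array B (0.0551). Without wild type array C, which stood apart, it was 2.48 (adjusted p = 0.0258). *Xist*, the transcript of the inactive X chromosome, had a signal of at least 100 in all 3 mutant mesangial arrays but in 1 of the 3 wild type arrays, A, so it was not balanced between the genotypes. In endothelial cells it was so in 1 mutant and 3 wild type arrays, and in podocytes in 2 of each. *Xist* is made in female cells, so the sexes were unequal in the mesangial and endothelial comparisons. With *Xist* as a covariate within the mesangial arrays the *Thbs1* difference was 2.05 and no longer called (adjusted p = 0.205), in a fit that called 1 transcript cluster in all. This estimate is by construction the mutant arrays against wild type array A alone, the only wild type array with *Xist* of at least 100. Taking just these arrays therefore gives the same 2.05 and is no separate result. With all 18 arrays in 1 fit and the same covariate the *Thbs1* difference was 2.17 (adjusted p = 0.00192 from limma). That fit takes the *Xist* effect to be the same in the 3 cell types, so arrays of the other cell types inform it. Whether that holds for *Thbs1* was not tested. Smooth muscle and juxtaglomerular markers moved in part with *Thbs1*. Their summed signal in mutant mesangial arrays A, B and C was 1959, 2986 and 3270, against 1769 to 2079 in wild type arrays. All 6 markers averaged at least 100 in the mutant arrays, and 5 did in the wild type arrays. Between genotypes 0 of these 6 markers were called by limma, beside 2.92% of all transcript clusters. Without mutant array A 1 was called higher, where 81 of 11337 transcript clusters were called in either direction. The part of these markers in the result was not tested. Platelets carry much THBS1. None of 7 platelet markers reached a mean of 100 in either mesangial group, though their sum was higher in every mutant array, at 450 to 467, than in the wild type arrays, at 435 to 443. Their part in the *Thbs1* signal was not tested.

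In podocytes *Thbs1* signals were 225.1, 164.7 and 132.7 in mutant arrays A, B and C and 104.6, 232.0 and 210.5 in wild type arrays. The groups overlapped throughout. The log2 difference was -0.02 (95% confidence interval -0.78 to 0.74, adjusted p = 0.984 from limma), an interval that leaves room for a change of up to 1.71-fold. Among the mutant podocyte arrays, the order of *Thbs1* was also that of the mesangial marker sum, at 4189, 3493 and 1247, and of the smooth muscle and juxtaglomerular sum, at 3424, 2750 and 1472. Among the wild type podocyte arrays this order did not hold, since the array lowest in *Thbs1* had the highest mesangial sum, 5654. The part of these cells in the *Thbs1* signal of podocyte arrays was not tested.

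In endothelial cells *Thbs1* was at the edge of the minimum signal, at 112.7, 83.2 and 82.0 in mutant arrays A, B and C and 70.3, 77.7 and 87.0 in wild type arrays. One array of 6, mutant A, exceeded 100. The log2 difference was 0.23 (95% confidence interval -0.11 to 0.57, adjusted p = 0.426 from limma). It was 0.07 with *Xist* as a covariate (adjusted p = 0.950), 0.47 with all 18 arrays and that covariate (adjusted p = 0.648), and 0.16 to 0.31 with 1 array left out, and no alternative called it. The groups overlapped, since wild type array C lay above mutant arrays B and C.

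The difference between cell types was tested directly as an interaction over all 18 arrays. The genotype difference of *Thbs1* in podocytes minus that in mesangial cells was -2.43 on the log2 scale (95% confidence interval -3.37 to -1.50, adjusted p = 0.0169 from limma), and 0.717% of 13523 transcript clusters were called in this contrast. The same for endothelial minus mesangial cells was -2.18 (95% confidence interval -3.12 to -1.25, adjusted p = 0.0227), where 1.07% were called. The effect was therefore larger in mesangial cells than in either of the other cell types. If the mesangial controls were heterozygous, which is not settled, both contrasts would also set unlike controls beside each other, and this cannot be told apart from cell type. Podocytes and endothelial cells were not shown to differ from each other, at 0.25 (95% confidence interval -0.68 to 1.18, adjusted p = 0.757), where 2.11% were called. The podocyte contrast lost its call without mesangial mutant B (adjusted p = 0.0562), podocyte wild type B (0.0523) or podocyte wild type C (0.0543), and was kept with *Xist* as a covariate, at -2.19 (0.0419). The endothelial contrast lost it without any 1 of 6 arrays, mesangial mutant B or C, mesangial wild type B, endothelial mutant C, or endothelial wild type B or C (adjusted p = 0.0518 to 0.0709), and with *Xist* as a covariate, at -1.70 (0.233).

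**Figure D2:**
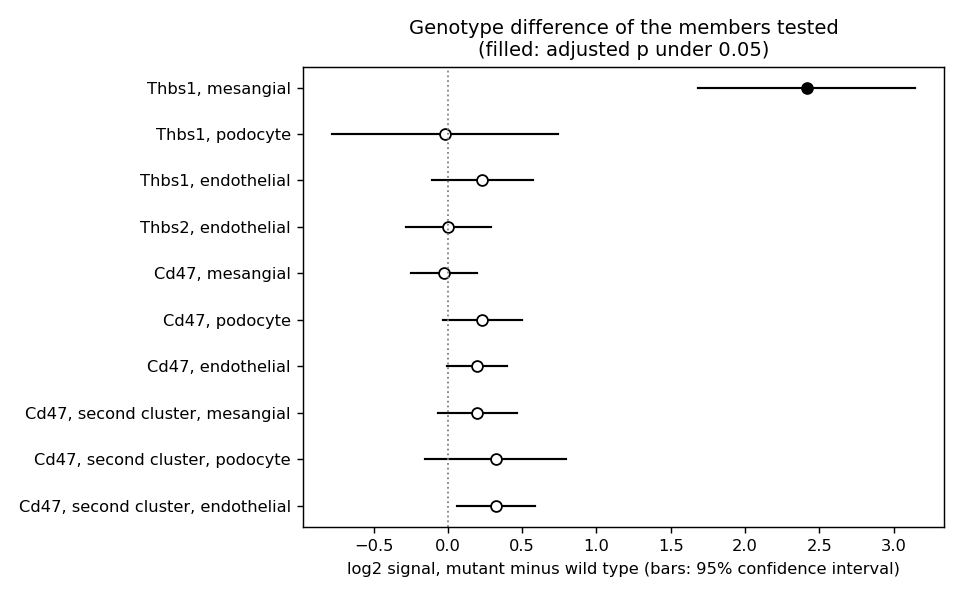
Log2 difference between mutant and wild type arrays (points) with its 95% confidence interval (bars) for the members that reached a signal of 100 on any of the 6 arrays of a cell type; filled points have an adjusted p under 0.05. *Thbs1* in mesangial cells, at 2.42, is the single filled point, and the main *Cd47* cluster lies between -0.03 and 0.23.

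*Cd47*, the receptor, lay between 1976 and 3160 in all 18 arrays and was not called between genotypes in any cell type. In mesangial cells its main transcript cluster (10436196) had signals of 2559.8, 2497.0 and 2503.0 in mutant arrays A, B and C and 2476.0, 2387.1 and 2853.2 in wild type arrays. The mutant arrays lay within the range of the wild type arrays, and the highest wild type value was that of array C. The log2 difference was -0.03 (95% confidence interval -0.25 to 0.20, adjusted p = 0.900), and without wild type array C it was 0.05 (adjusted p = 0.798), both from limma. The interval of this cluster reaches 1.19-fold at most, and that of the second cluster 1.38-fold, in the cells whose *Thbs1* signal differed 5.34-fold.

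In podocytes *Cd47* was at 2401.6, 2479.4 and 2407.0 in mutant arrays A, B and C and 1976.2, 2162.1 and 2066.4 in wild type arrays. All mutant arrays lay above all wild type arrays. The log2 difference was 0.23 (95% confidence interval -0.03 to 0.50, adjusted p = 0.392 from limma), and it was not called. In endothelial cells *Cd47* was at 3156.0, 2977.4 and 3160.2 in mutant arrays and 2568.9, 2869.1 and 2688.1 in wild type arrays. Again the groups did not overlap, with a log2 difference of 0.19 (95% confidence interval -0.01 to 0.40, adjusted p = 0.287 from limma). Mutant arrays lay above all wild type arrays in 6.97% of the transcript clusters tested in podocytes and in 17.7% of those tested in endothelial cells. The called shares there were 0.0578% and 1.29%, that is 7 and 146 transcript clusters. Without podocyte mutant array A the podocyte count was 344, and without any 1 of the other podocyte arrays 0 to 2 by limma, where 1018 to 1763 had an unadjusted p under 0.05. In endothelial cells the count ran from 49 to 253 with 1 array left out. No member passed the screen of the methods in these cell types, which 5.61% and 3.82% of their transcript clusters did.

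The second *Cd47* transcript cluster (10436182) gave the groups a like order. Its means in mutant and wild type arrays were 1358 ± 184 and 1077 ± 43.3 in endothelial cells, 893 ± 115 and 775 ± 40.2 in mesangial cells, and 758 ± 180 and 598 ± 77.1 in podocytes (SD, n = 3 each). The log2 differences were 0.33 (adjusted p = 0.200), 0.20 (0.362) and 0.32 (0.509) from limma. In endothelial cells the mutant arrays, at 1236.1 to 1570.0, lay above the wild type arrays, at 1040.6 to 1124.9. In the other cell types the groups overlapped. The 2 clusters of *Cd47* thus pointed up in mutant podocytes and endothelial cells without a call, and differed in sign in mesangial cells. Of all transcript clusters tested, 56.2% lay below 0 in podocytes and 35.1% in endothelial cells, so up was the common direction in endothelial cells.

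*Thbs2*, the closest relative of *Thbs1*, showed no such difference. Its signal (transcript cluster 10447951) was 102.3, 104.4 and 93.3 in mutant endothelial arrays A, B and C and 118.1, 94.6 and 88.6 in wild type endothelial arrays. The groups overlapped, and the log2 difference was 0.00 (95% confidence interval -0.28 to 0.29, adjusted p = 0.988 from limma). In mesangial arrays it was 75.6, 68.9 and 98.1 in mutants and 80.7, 74.0 and 85.8 in wild type, and in podocyte arrays 68.1 to 83.9, all below the minimum for a test.

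*Thbs3*, *Thbs4* and *Comp* did not reach a signal of 100 in any array. *Thbs3* (transcript cluster 10493449) lay between 49.2 and 62.6, *Thbs4* (10411082) between 40.1 and 57.4, and *Comp* (10572378) between 55.5 and 94.7. None was tested by the rule. In mesangial cells *Thbs3* was at 54.3, 60.2 and 59.3 in mutant arrays A, B and C against 52.5, 49.9 and 49.7 in wild type arrays, and *Thbs4* at 48.2, 48.4 and 57.4 against 46.5, 45.3 and 40.1. Both lay higher in every mutant array than in every wild type array, as did 12.3% of the transcript clusters tested. In a fit over all 28856 transcript clusters without a minimum the log2 differences were 0.19 for *Thbs3* (adjusted p = 0.220) and 0.22 for *Thbs4* (adjusted p = 0.380) from limma, and neither was called. *Comp* had its highest mean in wild type podocyte arrays. Podocyte arrays were at 81.8, 94.7 and 79.2 in wild type and 73.5, 68.3 and 86.7 in mutants, with 59.6 to 68.7 in the wild type arrays of the other cell types. Mutant podocyte and mutant mesangial arrays overlapped, since mesangial array A was at 72.6. No thrombospondin other than *Thbs1* thus exceeded 118.1 in any array, and a change in a transcript at this level may not be detectable here.

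Across cell types, *Thbs1* was lowest in endothelial cells. Among the wild type arrays the order was mesangial cells (204 ± 59.2), podocytes (182 ± 68.2) and endothelial cells (78.3 ± 8.36; SD, n = 3 each). Podocytes and mesangial cells were not shown to differ (log2 difference -0.20, 95% confidence interval -0.88 to 0.48, adjusted p = 0.658 from limma). Endothelial cells were lower than mesangial cells (log2 difference -1.34, adjusted p = 0.00802) and lower than podocytes (-1.14, adjusted p = 0.0142). Differences between cell types are common here: 32% of the transcript clusters were called between endothelial and mesangial wild type arrays, 38.8% between endothelial and podocyte arrays and 27.9% between podocyte and mesangial arrays. The first call held without any 1 array, and the second was lost without podocyte wild type B (adjusted p = 0.0541) or C (0.0585).

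Among the mutant arrays the *Thbs1* order was the same, and mesangial cells stood at 1096 ± 339 against 174 ± 46.9 in podocytes and 92.6 ± 17.4 in endothelial cells (SD, n = 3 each). The log2 differences from mesangial cells were -2.63 for podocytes (adjusted p = 0.000101) and -3.53 for endothelial cells (adjusted p = 8.73e-06), in contrasts that called 29% and 22.8% of transcript clusters. Endothelial cells were below podocytes (-0.89, adjusted p = 0.0217, with 47.1% called), a call that was lost without endothelial mutant B (0.0698), endothelial mutant C (0.0678) or podocyte mutant A (0.0619). The 6 mutant arrays of podocytes and endothelial cells together ranged from 82.0 to 225.1, all under the 706.4 of the lowest mutant mesangial array.

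*Cd47* was highest in endothelial cells and lowest in podocytes. Among wild type arrays the means of the main cluster were 2709 ± 151 in endothelial cells, 2572 ± 247 in mesangial cells and 2068 ± 92.9 in podocytes (SD, n = 3 each). Endothelial cells exceeded podocytes by 0.39 on the log2 scale (adjusted p = 0.00970 from limma) and were not shown to differ from mesangial cells in this cluster (0.08, 95% confidence interval -0.14 to 0.29, adjusted p = 0.575). The second cluster did separate these, by 0.48 (adjusted p = 0.00772), so the 2 clusters gave different answers on endothelial against mesangial cells. Podocytes were below mesangial cells in the main cluster (log2 difference -0.31, adjusted p = 0.0370) and in the second (-0.38, adjusted p = 0.0255). The main cluster's difference between podocytes and mesangial cells was -0.23 without mesangial wild type array C (adjusted p = 0.114). That call was also lost without mesangial A, podocyte A, B or C, or endothelial C of the wild type arrays (adjusted p = 0.0526 to 0.0978).

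Among mutant arrays *Cd47* averaged 3098 ± 104 in endothelial cells, 2520 ± 34.6 in mesangial cells and 2429 ± 43.5 in podocytes (SD, n = 3 each). Endothelial cells exceeded podocytes by 0.35 (adjusted p = 0.0117) and mesangial cells by 0.30 (adjusted p = 0.0423), both from limma. The second of these calls was lost without any 1 of the 6 endothelial or mesangial mutant arrays (adjusted p = 0.0845 to 0.127). Podocytes and mesangial cells, called apart among wild type arrays, were not among mutant arrays, at -0.05 (95% confidence interval -0.26 to 0.15, adjusted p = 0.689). The test of that change is the interaction, at 0.26 (95% confidence interval 0.01 to 0.51, adjusted p = 0.395), which was not called.

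*Thbs2* was the thrombospondin with its highest signals in endothelial cells. Among wild type arrays its means were 100.4 ± 15.6 in endothelial cells, 80.2 ± 5.91 in mesangial cells and 77.9 ± 5.25 in podocytes (SD, n = 3 each). It entered the test only through endothelial arrays, 3 of which reached 100 (mutant A and B and wild type A), so a difference was built into its passing. Endothelial cells exceeded podocytes by 0.36 among wild type arrays (adjusted p = 0.0406) and by 0.44 among mutant arrays (adjusted p = 0.0283), from limma. Against mesangial cells the log2 difference was 0.32 in both genotypes and not called (adjusted p = 0.0730 and 0.140), and among mutant arrays these groups overlapped. The wild type call was lost with no minimum signal (0.0613) and without endothelial B, mesangial A or podocyte B or C (0.0559 to 0.111), and it could not be tested without endothelial A. The mutant call was lost without endothelial A or B or podocyte C (0.0750 to 0.0880). Without mesangial mutant array C the mutant difference from mesangial cells was 0.47 and called (0.0302).

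The genes around THBS1 and CD47 were read from lists of receptors, partners and downstream genes, with mesangial cells first because *Thbs1* differed there. Of 20 thrombospondin receptors and clearance genes, 17 could be tested in mesangial cells, 2 were lower in mutants and none was higher, against 2.92% of all transcript clusters called in either direction. The count was 2 without wild type array C and 1 without any 1 of the other mesangial arrays. *Itga4*, an integrin chain that binds fibronectin and VCAM1, fell from 1534 ± 123 to 697 ± 43.5 (log2 difference -1.14, adjusted p = 0.00492). *Itga3*, the integrin chain that pairs with *Itgb1* and binds thrombospondin and laminin, fell from 229 ± 14.8 to 145 ± 5.36 (-0.66, adjusted p = 0.0179), and it was called in 1 of the 6 cases with 1 array left out, with a highest adjusted p of 0.0861. *Itgav*, a chain of the integrins that bind the RGD motif of thrombospondin, had a log2 difference of 0.45 (adjusted p = 0.0980). *Lrp1*, which takes up THBS1 for degradation, had -0.09 (adjusted p = 0.591). *Cd36*, the receptor for the type 1 repeats, averaged 46.0 ± 7.78 in mutant and 150 ± 178 in wild type arrays (-1.02, adjusted p = 0.484), a mean set by wild type array C at 355.2, where arrays A and B were at 52.1 and 42.5. Without array C no mesangial array reached 100 for *Cd36*, and it could not be tested. The median log2 difference of the list was -0.05, beside -0.02 for all transcript clusters tested.

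Of 10 ligands and partners of CD47, 7 were tested in mesangial cells and none was called by limma, where 2.92% of all transcript clusters were. Of these 7, 1, *Itgav* again, had an unadjusted p under 0.05, as had 21.7% of all transcript clusters tested there. *Sirpa*, the phagocyte ligand, had a log2 difference of 0.07 (adjusted p = 0.697), and *Gnai2*, a subunit of the inhibitory G proteins that CD47 couples to, had -0.10 (adjusted p = 0.601). The median of the list was 0.00. Nitric oxide and cGMP signalling, which THBS1 lowers through CD47, was represented by 8 genes on the array and 7 tested. *Gucy1a3*, a subunit of the nitric oxide receptor guanylate cyclase, fell from 776 ± 66.3 to 474 ± 29.6 (-0.71, adjusted p = 0.0226), and *Pde5a*, which degrades cGMP, fell from 522 ± 63.8 to 308 ± 36.4 (-0.76, adjusted p = 0.0391). *Gucy1b3*, the partner subunit, had -0.50 (adjusted p = 0.0782) and *Prkg1*, the cGMP-dependent kinase, -0.27 (adjusted p = 0.181). The 2 calls of 7, beside 2.92% of all transcript clusters, stood without wild type array C and were both lost without any 1 of the other mesangial arrays, with highest adjusted p of 0.0951 for *Gucy1a3* and 0.138 for *Pde5a*. With all 18 arrays and *Xist* as a covariate neither was called (*Gucy1a3* -0.59, adjusted p = 0.300; *Pde5a* -0.83, adjusted p = 0.0578). The 7 log2 differences in mesangial cells were below 0, with a median of -0.42, as were 54.6% of those of all transcript clusters tested there.

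Some cell type markers were lower in the same arrays. Of 8 mesangial markers 2 were called lower, *Pdgfrb* (-0.58, adjusted p = 0.0420) and *Itga8* (-0.59, adjusted p = 0.0235), with none higher, beside 2.92% of all transcript clusters. Without wild type array C *Pdgfrb* was at -0.57 (adjusted p = 0.0764) and *Itga8* at -0.60 (adjusted p = 0.0388), from limma. In that fit 2 of the 8 mesangial markers were again called lower, so a marker other than *Pdgfrb* was called beside *Itga8*. No mesangial marker was called without any 1 of the other mesangial arrays, or with all 18 arrays and *Xist* as a covariate (*Pdgfrb* -0.58, adjusted p = 0.264; *Itga8* -0.38, adjusted p = 0.751). The sum of the 8 was 9154 to 10548 in mutant and 12086 to 13243 in wild type arrays. Of 9 endothelial markers 2 were called lower and none higher, beside the same 2.92%. They were *Tek*, the receptor of the angiopoietins (-1.19, adjusted p = 0.0497), and *Ehd3* (-0.98, adjusted p = 0.0121), from limma. The sum of the 9 was 3265, 3160 and 3018 in mutant arrays A, B and C and 3033, 3418 and 8379 in wild type arrays. The groups thus overlapped: wild type array A lay within the mutant range, array B a little above it and array C far above it. Without wild type array C *Tek* and *Ehd3* were at -0.95 (adjusted p = 0.0478) and -0.96 (adjusted p = 0.0205). *Tek* was called in 2 of the 6 cases with 1 array left out and *Ehd3* in 5, and neither with all 18 arrays and the covariate. The part of these markers in the lower signals was not tested.

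**Figure D3:**
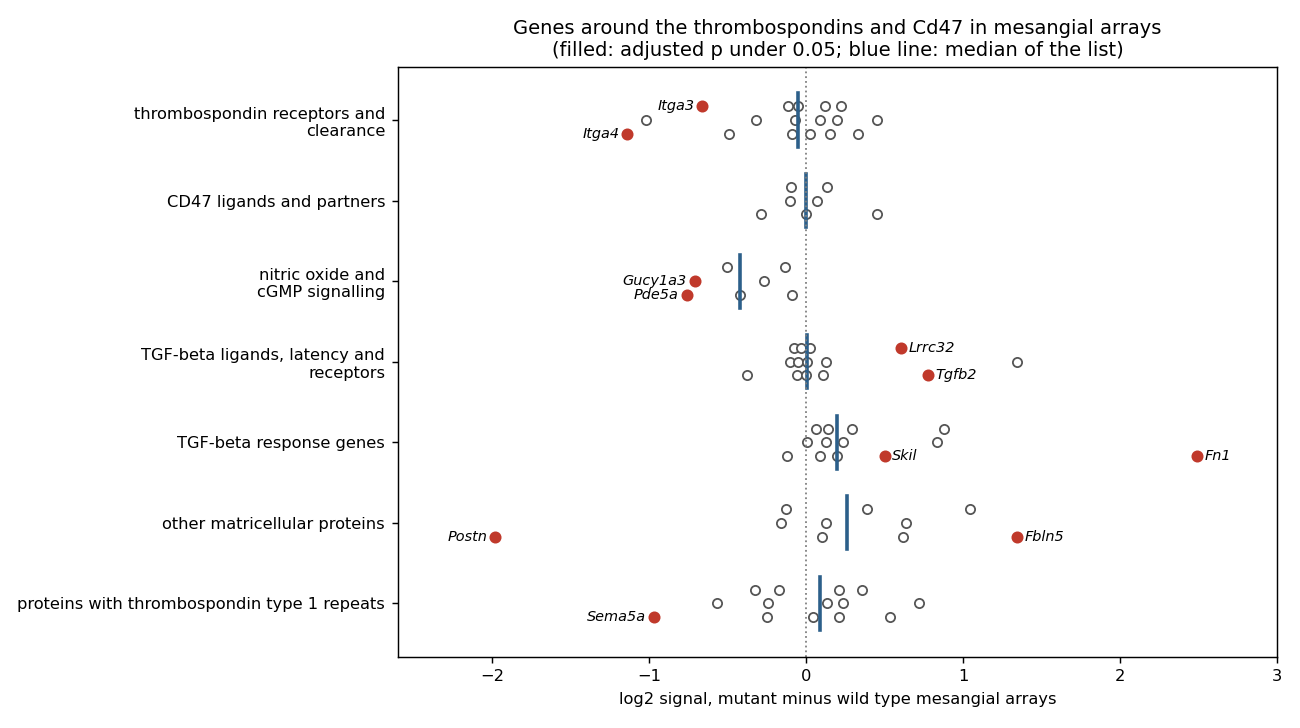
Log2 difference between mutant and wild type mesangial arrays for the genes of 7 lists that reached a signal of 100 on any of the 6 arrays; each point is a gene, filled points have an adjusted p under 0.05, and the blue line is the median of the list. The 7 tested genes of nitric oxide and cGMP signalling lie left of 0, as do 54.6% of all transcript clusters tested, and *Fn1*, at 2.49, lies farthest right.

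THBS1 activates TGF-beta, and 14 of 17 ligands, latency proteins and receptors on the array were tested in mesangial cells, of which 2 were higher and none lower, against 1.25% of all transcript clusters called higher. Without wild type array C 3 of 12 were higher, and without any 1 of the other mesangial arrays none was called. *Tgfb2* rose from 107 ± 16.0 to 182 ± 20.4 (log2 difference 0.77, adjusted p = 0.0426), and *Lrrc32*, a cell surface anchor of latent TGF-beta, rose from 85.3 ± 4.10 to 130 ± 5.08 (0.61, adjusted p = 0.0204). *Lrrc32* reached 100 in mutant arrays alone, so a difference was built into its passing the minimum. *Tgfb3* averaged 281 ± 40.8 in mutant and 115 ± 42.2 in wild type arrays (1.34, adjusted p = 0.0595), and without wild type array C it was called (1.04, adjusted p = 0.0430). *Tgfb1*, the isoform whose activation by THBS1 is best known, had -0.05 (adjusted p = 0.780). The receptors *Tgfbr1* (-0.03) and *Tgfbr2* (0.01) had adjusted p of 0.912 and 0.976. The median of the list was 0.00.

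Of 14 TGF-beta response genes on the array, 13 were tested in mesangial cells, 2 were higher and none lower, again against 1.25% higher and 2.92% in either direction over all transcript clusters. *Fn1*, fibronectin, rose from 74.8 ± 13.5 to 449 ± 189 (log2 difference 2.49, adjusted p = 0.0235), which makes it 1 of the 6 increases larger than that of *Thbs1*. Its wild type arrays were all below 100, so it too passed the minimum through the mutant arrays. *Skil*, a feedback inhibitor of SMAD proteins, rose by 0.50 (adjusted p = 0.0411). *Ctgf* had -0.12 (adjusted p = 0.540) and *Smad7* 0.09 (adjusted p = 0.788), so neither of these targets of the pathway passed the test. The median of the list was 0.19.

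Among 10 other matricellular proteins tested in mesangial cells, 1 rose and 1 fell, beside the same 2.92%. *Fbln5*, fibulin 5, a protein of elastic fibre assembly, rose from 138 ± 6.99 to 352 ± 52.2 (1.34, adjusted p = 0.00642), and *Postn*, periostin, fell from 160 ± 28.0 to 40.3 ± 5.08 (-1.98, adjusted p = 0.00388), with wild type arrays alone above the minimum. *Spp1*, osteopontin, had 1.05 (adjusted p = 0.108), and *Sparc* -0.16 (adjusted p = 0.387). Among 14 tested proteins with type 1 repeats, none rose and 1 fell, again beside 2.92% of all transcript clusters in either direction. It was *Sema5a*, a guidance protein, from 758 ± 53.8 to 387 ± 38.3 (-0.97, adjusted p = 0.0116 from limma). The median of the list was 0.09.

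*Thbs1* is also known as a target of serum response factor and YAP, and as an immediate early gene that handling can induce. Of 12 tested genes of the first kind, 2 were higher in mutant mesangial arrays, beside 1.25% of all transcript clusters: *Ankrd1*, a YAP target, at 501 ± 203 against 112 ± 25.4 (2.09, adjusted p = 0.0303), and *Egr1* at 171 ± 29.7 against 97.4 ± 3.90 (0.80, adjusted p = 0.0396). *Acta2*, smooth muscle actin, had 1.07 (adjusted p = 0.0949), *Cyr61* 0.39 (adjusted p = 0.221) and *Ctgf* was named above. Of 14 tested immediate early and dissociation genes *Egr1* was the only call, beside 2.92% of all transcript clusters in either direction. *Fos* was at 0.21 (adjusted p = 0.543), *Jun* at -0.73 (adjusted p = 0.292) and *Atf3* at -0.15 (adjusted p = 0.795) from limma. With 1 array left out the first count was 0 in 4 of 6 cases, and *Egr1* was called in 1, with a highest adjusted p of 0.141 from limma. Without mutant array A the second list had a call in the other direction, with 1 of 13 tested genes lower and 0 higher.

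Over the 9 lists 104 genes were tested in mesangial cells and 13 were called (7 higher, 6 lower), where 2.92% of all transcript clusters were, on lists chosen with earlier results known. Of the 13, *Fn1* and *Lrrc32* reached the minimum signal in mutant arrays alone and *Postn* in wild type arrays alone, so these 3 could be tested only through the genotype in which they were high. Counting the marker lists too, 18 listed genes were called. Whichever array was left out, all 18 kept their direction, with log2 differences from 0.780 to 1.19 times those with all 6 arrays. Fewer passed the test: 13 of the 18 stayed called without wild type array C and 3 to 7 without any 1 of the other mesangial arrays, where the calls over all transcript clusters also dropped from 335 to between 50 and 118. With all 18 arrays and *Xist* as a covariate 6 of the 18 were called. *Itga4*, *Postn* and *Fbln5* were called whichever of the 6 arrays was left out, and *Sema5a* and *Ehd3* in 5 of 6 cases. *Fn1* was called in 2 of 6 cases, with a highest adjusted p of 0.0944, and *Ankrd1* in 1, with 0.105. *Skil* was called in none. Without wild type array C *Ankrd1* (1.91, adjusted p = 0.0509), *Egr1* (0.76, adjusted p = 0.0732), *Skil* (0.50, adjusted p = 0.0730), *Cldn1*, a marker of parietal epithelium (1.00, adjusted p = 0.0923), and *Pdgfrb* were the calls lost. With *Xist* as a covariate over 18 arrays *Itga3* (-0.75), *Fn1* (2.64), *Fbln5* (1.23), *Sema5a* (-0.99) and *Ankrd1* (1.91) were called, as was *Cldn1* (1.05, and 1.09 with adjusted p = 0.0497 in mesangial arrays alone), with adjusted p from 0.00184 to 0.0374. *Cldn1* was the only call among 3 tested markers of parietal epithelium and fibroblasts, beside 2.92% of all transcript clusters. The summed signal of that list was 1318 to 1578 in mutant and 1429 to 1599 in wild type mesangial arrays. *Cldn1* was not called in any of the 6 cases with 1 array left out.

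In podocytes none of the 101 tested genes on these 9 lists was called by limma, beside 0.0578% of all transcript clusters, and 30 had an unadjusted p under 0.05, as had 14.3% of all transcript clusters. In the receptor list the smallest adjusted p there was that of *Cd36*, 0.135, at 43.2 ± 22.4 in mutant and 184 ± 74.6 in wild type arrays. It reached 100 in wild type arrays alone, so it could be tested only through the genotype in which it was high. The endothelial marker sum moved with it, at 828 to 2808 in mutant and 4531 to 6073 in wild type podocyte arrays, and its part was not tested. In endothelial cells 3 of 90 tested genes were called, all higher, which is 3.33% beside 1.29% of all transcript clusters in either direction. Of all transcript clusters tested there, 35.1% lay below 0. The called genes were *Lrp5*, a low density lipoprotein receptor relative (0.60, adjusted p = 0.0499), *Cdkn1a*, a cell cycle inhibitor (1.06, adjusted p = 0.0105), and *Pmepa1*, a TGF-beta response gene that inhibits the pathway (0.58, adjusted p = 0.0277). These 3 calls were not tested with an array left out or with *Xist* as a covariate. Over all endothelial transcript clusters 146 were called, and with that covariate 28 within the cell type and 62 over 18 arrays. *Cd36*, which endothelial cells use for fatty acid uptake as well as for thrombospondin, averaged 501 ± 193 in mutant and 982 ± 103 in wild type endothelial arrays (-1.05, adjusted p = 0.131 from limma). *Itgb3* averaged 143 ± 51.8 and 81.3 ± 6.22 (0.76, adjusted p = 0.162 from limma). It too reached 100 only in the genotype in which it was high, here the mutant.

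The genes whose signals most resembled those of *Thbs1* over the 18 arrays were *Ccdc68*, *Pcdh7*, *Tnnt2*, *Aldh1a2* and *Ogn*, with Pearson's r of 0.95, 0.94, 0.93, 0.93 and 0.93 among 11131 other transcript clusters with 1 symbol. The 18 arrays fall into 6 groups and share cell type and genotype, so r is a description. *Aldh1a2*, which makes retinoic acid, averaged 1312 in mutant and 145 in wild type mesangial arrays, and *Tnnt2*, a troponin of striated muscle, 580 and 187. *Ccdc68* averaged 513 and 118, *Ogn*, the matrix proteoglycan osteoglycin, 305 and 115, and *Pcdh7*, a protocadherin, 159 and 52.3. Their mesangial log2 differences were 1.34 to 3.23, which the choice by likeness to *Thbs1* favours. Within the mutant mesangial arrays *Thbs1*, *Ccdc68*, *Tnnt2* and *Ogn* were lowest in array A and highest in array C, whereas *Aldh1a2* was lowest in array B. *Ccdc68* alone of the 5 stayed among the first 5 both by Spearman's rho and after removal of the cell type means.

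**Figure D4:**
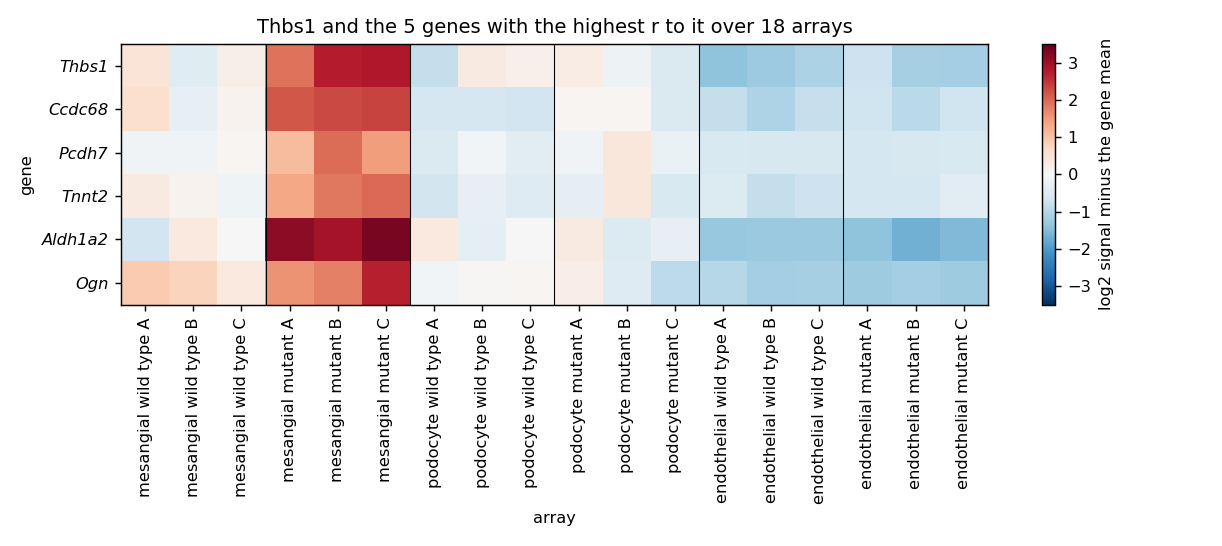
Log2 signal minus the mean of the gene over the 18 arrays (colour) for *Thbs1* and the 5 genes with the highest Pearson's r to it; columns are arrays, divided by cell type and genotype. The 3 mutant mesangial columns are the reddest in each row, and the 6 endothelial columns are blue.

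For *Thbs2* the closest 5 genes were *Elf2*, *Ssna1*, *Nrm*, *Men1* and *Prpf38a* (r of 0.87 to 0.88), each with its highest group mean in endothelial arrays. For *Cd47* they were *Ier2*, *6330409D20Rik*, *Ddx60*, *Sipa1l1* and *Spats2* (r of 0.87 to 0.88), each with its highest group mean in mutant endothelial arrays. Of the *Cd47* set, *Ddx60*, an interferon-inducible helicase, averaged 246 in mutant and 116 in wild type endothelial arrays (log2 difference 1.10), where *Cd47* had 0.19. With the cell type means removed, none of these 5 genes stayed in the first 5 of either list.

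The genes next to *Thbs1* in the RefSeq order, *Rasgrp1* and *Fsip1*, did not exceed 56.1 in any array and were not tested. The neighbours of *Cd47*, *Ift57* and *Bbx*, were detected and were not called in any cell type, with log2 differences of -0.11 to 0.29. These neighbours were looked up after the values of the members were known.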

How the data were processed

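RNA of FACS-sorted glomerular cells was hybridised to 18 Affymetrix arrays, in 6 groups of 3. Per the labels, the authors made gene level RMA values with Expression Console, deposited as linear intensity signals for 28856 transcript clusters, of which 25254 carry a gene symbol and 2815 several. A further 18 columns, headed as normalized values of the same arrays, were not used here. The series record also names exon arrays and other software, which was not resolved. RMA subtracts background and equalises distributions, so low signals are compressed. RNA-seq libraries of the study were not analysed here.

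Columns name a group but not a sample, so arrays were mapped to groups and no scan or batch record was used. Log2 signals were tested with limma 3.58.1 in R 4.3.3 (lmFit, eBayes, two-sided), mutant minus wild type within each cell type, cell types within each genotype, and interactions over 18 arrays. Tests covered transcript clusters that reached 100 on any array of the comparison, and those with a Benjamini-Hochberg adjusted p under 0.05 over all of them were called. The cluster with the highest mean signal stood for a gene. The 5 genes with the highest Pearson's r to a member were named, and every called gene of the lists with up to 4 others. Members and lists were chosen with earlier results of these data known. Promoters, gene order and builds came from RefSeq tables (GRCm38.p6). Scripts were tested on simulated data. Alternatives were other filters, variance moderation, centring, quantile normalization, a background subtraction, all arrays in 1 fit, other transcript clusters and each array left out. Some items are not reported here.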

Additional observations from a re-analysis of the deposited data

Results flagged for a closer look

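The difference between genotypes in *Thbs1* was not the same in all cell types, by the interaction test itself. A possible heterozygous control in mesangial cells alone cannot be told apart from cell type here. The podocyte difference minus the mesangial difference was -2.43 on the log2 scale (adjusted p = 0.0169 from limma), and the endothelial difference minus the mesangial difference was -2.18 (adjusted p = 0.0227). All 3 mutant mesangial arrays lay above all 3 wild type arrays, as in 12.3% of the transcript clusters tested there. In podocytes and in endothelial cells the *Thbs1* signals of the genotypes overlapped.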

How the results depend on the processing

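The mesangial *Thbs1* difference stayed called in 9 of 11 alternatives, with adjusted p from 0.000252 to 0.205. Settings with *Xist* as a covariate, or with arrays of high *Xist* alone, were chosen after seeing the data. The mesangial call was lost with the covariate (2.05, adjusted p = 0.205 from limma), and the arrays with high *Xist* alone gave the same 2.05. These 2 alternatives are 1 contrast by construction, because wild type array A is the only wild type mesangial array with high *Xist*. The endothelial minus mesangial interaction lost its call with the covariate (-1.70, adjusted p = 0.233 from limma). Within mesangial cells the covariate leaves fewer degrees of freedom and called 1 transcript cluster against 335. All 18 arrays called 480 without the covariate and 313 with it. In podocytes the count was 7, with 1 and 860 under the covariate within the cell type and over 18 arrays, and in endothelial cells 146, with 28 and 62, where all 18 arrays without the covariate called 837 in podocytes and 187 in endothelial cells. The other settings called up to 729 in mesangial cells (intensity trend with robust estimation), 837 in podocytes (all 18 arrays) and 271 in endothelial cells (equal medians). In podocytes limma called 0 without a minimum signal, where 3095 had an unadjusted p under 0.05. The call of *Cd47* between podocytes and mesangial cells was lost after quantile normalization (-0.23, adjusted p = 0.0946), and that of *Thbs2* between endothelial cells and podocytes without a minimum (0.36, adjusted p = 0.0613). Of the differences near 0, the sign turned for mesangial *Cd47* (0.025 in both *Xist* settings, 0.20 in the second cluster), podocyte *Thbs1* (0.045, quantile), endothelial *Thbs2* (-0.095 and -0.059 with *Xist*, -0.12 in its interaction with mesangial cells), *Cd47* between podocytes and mesangial cells in mutants (0.022, quantile) and the *Cd47* interaction of endothelial cells and podocytes (0.065 with equal medians, 0.017 quantile). The cause of these changes was not tested.

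With 1 array left out, the differences between genotypes ranged from 2.16 to 2.71 (mesangial *Thbs1*), -0.077 to 0.052 (mesangial *Cd47*), -0.38 to 0.20 (podocyte *Thbs1*) and -0.081 to 0.13 (endothelial *Thbs2*). Among wild type arrays, podocytes minus mesangial cells ranged from -0.45 to 0.16 (*Thbs1*), -0.36 to -0.23 (*Cd47*) and -0.10 to 0.0095 (*Thbs2*), and endothelial cells minus podocytes from -1.50 to -0.93 (*Thbs1*) and 0.32 to 0.44 (*Thbs2*). Among mutant arrays, podocytes minus mesangial cells ranged from -0.23 to 0.029 (*Thbs2*), endothelial minus mesangial cells from 0.21 to 0.47 (*Thbs2*) and 0.28 to 0.33 (*Cd47*), and endothelial cells minus podocytes from -1.07 to -0.69 (*Thbs1*) and 0.38 to 0.49 (*Thbs2*). Interactions ranged from -2.79 to -2.18 (*Thbs1*) and -0.18 to 0.070 (*Thbs2*) for podocytes minus mesangial cells, -2.47 to -1.93 (*Thbs1*) and -0.10 to 0.15 (*Thbs2*) for endothelial minus mesangial cells, and -0.0024 to 0.20 (*Thbs2*) and -0.076 to 0.0038 (*Cd47*) for endothelial cells minus podocytes. A minimum in all 3 arrays of a genotype left no value for endothelial *Thbs1* and *Thbs2*, and endothelial *Thbs1* could not be tested without mutant array A. Over all endothelial transcript clusters the median difference was 0.07, 0.14 with equal medians and -0.01 after quantile normalization. No paired analysis was possible because the sample titles number the samples 1 to 18 across the series, so groups share no number.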
